A study of Mus musculus with 11 samples.

Results

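The genes described here encode components of the NF-κB pathway and were chosen by symbol: the subunit genes *Nfkb1* and *Nfkb2*, the inhibitor genes *Nfkbia* and *Nfkbiz*, and the kinase gene *Ikbke*. All 5 are among the 191 genes listed for lymphatic endothelial cells (LECs), and *Ikbke* is also among the 290 genes listed for the carcinoma line HaCa4. They are thus 5 of the 458 different genes in the data used here. RNA was sequenced in bulk from 11 libraries of mouse cell lines. LEC control (n = 3) and HaCa4 control (n = 2) were single cultures, and LEC-sorted (n = 3) and HaCa4-sorted (n = 3) came out of co-cultures of both lines that lasted 24 h and were separated by FACS. HaCa4 cells derive from a squamous cell carcinoma of mouse skin. The LECs of both groups carry the H-2Kb-tsA58 transgene, which encodes a thermolabile SV40 large T antigen and is induced by interferon-gamma, so they are conditionally immortal cells and not primary endothelium. The study grew 2 clones of them, and the labels do not give the clone of a library. Cancer cells were marked with the dye CFSE and LECs with an antibody to CD31. The sources used here do not say that the control cultures passed through the sorter, so co-culture and sorting cannot be told apart in these comparisons.

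The deposited values are TPM (transcript abundance per length, scaled to a fixed library total), and the number of reads behind them is unknown. Between 1.84% and 3.85% of all TPM in a library belonged to listed genes. The labels do not say whether replicates were separate cultures, so p-values measure only the spread between these libraries, which may be technical. Sorted and control libraries of each line were compared by limma on log2(TPM + 1), two-sided, with Benjamini-Hochberg adjustment over the listed genes of that line. A gene was called higher or lower where its log2 fold change reached 0.5 in either direction with an adjusted p no greater than 0.05. The listed genes are a selection that the study made on these libraries. For LECs, the number of listed genes and their split into rises and falls equal those the study called deregulated in this comparison. A call, a lack of overlap or a share of higher calls among LEC genes therefore largely restates that selection. The HaCa4 list is longer than the set the study called for that line. In neither line is a call on listed genes independent evidence. Of the labelled cell types, only part could be checked, since 2 of 26 endothelial markers (*Pdpn* and *Kdr*) are listed for LECs and 3 of 16 keratinocyte markers for HaCa4.

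NF-κB is a family of dimeric transcription factors that inhibitory IκB proteins hold in the cytoplasm until IKK kinases mark those inhibitors for degradation. *Nfkb1* and *Nfkb2* encode precursors that act as inhibitors themselves and are processed to DNA-binding subunits, *Nfkb1* in the canonical and *Nfkb2* in the non-canonical branch. *Nfkbia* encodes IκBα, which NF-κB itself induces and which ends its activity, whereas *Nfkbiz* encodes IκBζ, a nuclear IκB protein that binds NF-κB on DNA and is needed for a set of secondary response genes. *Ikbke* encodes IKKε, a kinase related to the IKK complex that acts on interferon regulatory factors as well as on NF-κB proteins. In endothelium the pathway is known for inducing chemokines and leukocyte adhesion molecules.

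The genes are spread over 5 chromosomes of GRCm38.p6. *Nfkb1* (Entrez 18033) lies at chr3:135584655-135691969, *Nfkb2* (18034) at chr19:46300994-46312400, and *Nfkbia* (18035) at chr12:55489409-55492647. *Nfkbiz* (80859) lies at chr16:55811375-55838954 and *Ikbke* (56489) at chr1:131254600-131279601. In RefSeq, *Nfkbia* and *Nfkbiz* overlap no other gene. *Nfkb1* overlaps the long non-coding RNA *Gm46827*, *Nfkb2* overlaps the long non-coding RNA *4833438C02Rik* and the end of *Psd*, and *Ikbke* overlaps the long non-coding RNAs *Gm28913* and *Gm51644*. Whether reads were counted by strand is not given in the sources used here, so reads from the shared stretches cannot be assigned.

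Sequence is shown for the start sites of *Nfkbia* and *Nfkb2*, because these stretches hold a match to the sequence that NF-κB dimers are known to bind. RefSeq promoter windows on GRCm38.p6 matched 3 of the 5 genes, with 1 window for *Nfkbia*, 1 for *Ikbke* and 3 for *Nfkb2*. The 250 bases upstream of each start were searched on both strands for GGNNTTTCC, a kappaB form with N for any base, which was chosen with the sequences in view. The stretch upstream of *Nfkbia*, at chr12:55492648-55492897 on the minus strand, lies in no annotated exon and is given whole, with the matches in capitals:
Nfkbia: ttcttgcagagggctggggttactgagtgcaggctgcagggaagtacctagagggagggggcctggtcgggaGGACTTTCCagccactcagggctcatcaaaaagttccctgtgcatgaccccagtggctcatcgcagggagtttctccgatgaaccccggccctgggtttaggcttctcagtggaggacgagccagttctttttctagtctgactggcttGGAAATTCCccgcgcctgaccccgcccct

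The distal match, GGACTTTCC, lies 178 to 170 bases before the *Nfkbia* start on the strand of the gene, and the proximal match, GGAAATTCC, lies 29 to 21 bases before it and reads as the motif on the opposite strand. At *Nfkb2*, 2 of the 3 windows held 1 match each to this form, and other kappaB forms were not counted. Because GENCODE M21 annotates exonic untranslated sequence of *Nfkb2* there, only the surrounding 30 bases are shown, from the plus strand at chr19:46304717-46304746 and chr19:46305696-46305725:
Nfkb2 upstream start: gggccgaaagGGGCTTTCCcggctggagcc
Nfkb2 downstream start: ggtattttcgGGACTTTCCtaagcagcact

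The match at the most upstream *Nfkb2* start lies 10 to 2 bases before it, and the match at the most downstream start lies 224 to 216 bases before it. The remaining *Nfkb2* window and the *Ikbke* window did not hold these letters. Over all RefSeq windows searched, 1619 of 32851 (4.93%) held the motif, and 65 (0.198%) held it at least 2 times, as the *Nfkbia* window does. Of the LEC genes called higher, 21 of the 95 with a window held the motif in at least 1 of their windows (22.1%), beside 6 of the 48 called lower (12.5%) and 1518 of 27025 genes in all (5.62%). The 21 genes include *Nfkbia* and *Nfkb2*, and the motif was chosen with the sequences in view. Their share is therefore not independent of that choice. A match describes the sequence alone, and binding was not measured.

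The first comparison asked how the NF-κB genes of LECs changed after co-culture with carcinoma cells. All 5 were higher in LEC-sorted than in LEC control, by 1.76-fold to 4.40-fold on the TPM scale. *Nfkbiz* rose furthest, *Nfkbia*, *Ikbke* and *Nfkb1* rose between 2.03-fold and 2.45-fold, and *Nfkb2* rose least. In each of the 5 genes every sorted library lay above every control library. This has to be read beside the table as a whole, in which 122 of 191 genes (63.9%) were called higher and 122 of 191 (63.9%) had no overlap between groups with the sorted libraries higher. These shares describe a list already selected for differing between these groups, and not genes in general. The median log2 fold change was 1.22 over the 5 genes, 0.87 over all 191 genes and 1.12 over the 122 genes called higher.

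**Figure D1:**
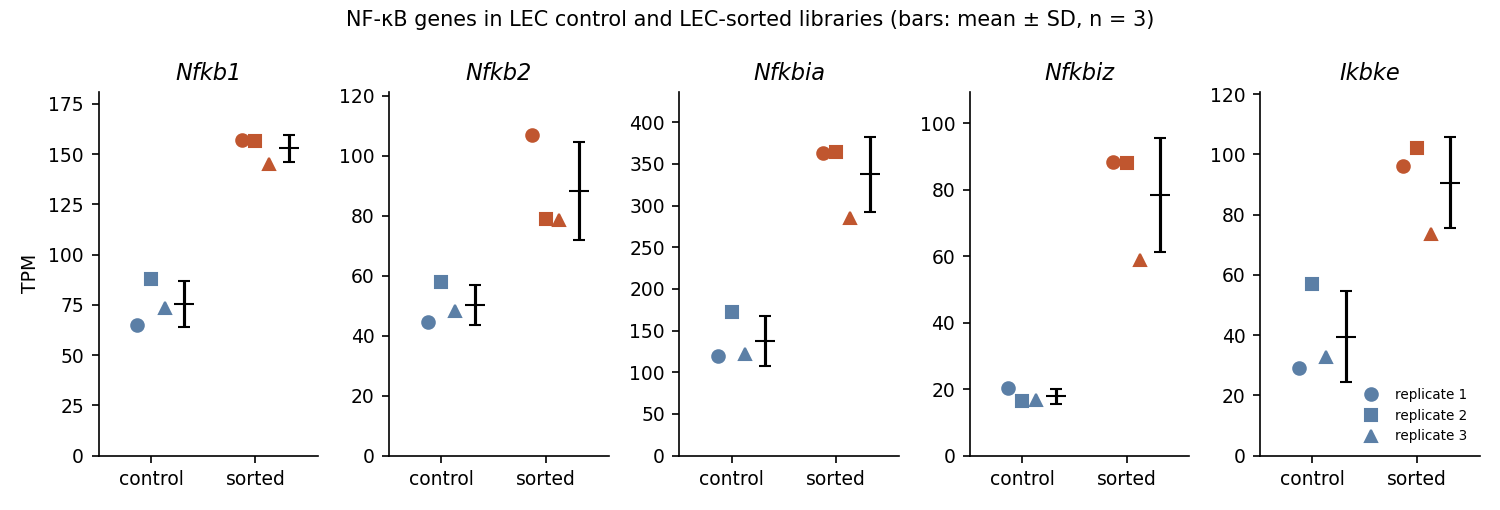
TPM of the 5 NF-κB genes in each LEC library, one panel per gene with its own axis from 0, with controls in blue, sorted libraries in orange, one marker shape per replicate, and a bar for the mean ± SD (n = 3). In every panel the sorted libraries sit above the controls, and sorted replicate 3, the triangle, is the lowest of the sorted libraries.

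Among the subunit genes, *Nfkb1* was at 64.84, 87.72 and 73.55 TPM in LEC control replicates 1 to 3 and at 156.9, 156.76 and 145.16 TPM in the LEC-sorted replicates. The sorted libraries lay close together and the groups did not overlap. The mean went from 75.4 ± 11.5 to 153 ± 6.74 TPM (SD, n = 3 each), a log2 fold change of 1.02 (SE 0.16, limma adjusted p = 0.00236).

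*Nfkb2*, the subunit gene of the non-canonical branch, was at 44.74, 57.8 and 48.24 TPM in control libraries against 107.07, 79.05 and 78.68 TPM in the sorted libraries. Sorted replicate 1 stood above the other sorted libraries, which were nearly equal, and the groups did not overlap. The mean was 50.3 ± 6.76 TPM in control and 88.3 ± 16.3 TPM in sorted cells, a log2 fold change of 0.79 (SE 0.19, limma adjusted p = 0.00795). Without sorted replicate 1 the log2 fold change was 0.65 and the call was kept.

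Of the inhibitor genes, *Nfkbia* had the highest level of the 5 genes in every library. It was at 119.07, 172.12 and 121.91 TPM in control libraries against 362.75, 364.21 and 284.63 TPM in the sorted libraries, without overlap. The mean rose from 138 ± 29.8 to 337 ± 45.5 TPM, a log2 fold change of 1.30 (SE 0.20, limma adjusted p = 0.00228). The gene with 2 motif matches upstream of its start ranked 48 of the 122 genes called higher when these were ordered by log2 fold change.

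*Nfkbiz* had the lowest level in control cells, at 20.45, 16.4 and 16.62 TPM, and was at 88.39, 88.12 and 58.72 TPM in the sorted libraries. The control libraries differed little, and the lowest sorted library stood well above them. The mean rose from 17.8 ± 2.28 to 78.4 ± 17.1 TPM, a log2 fold change of 2.06 (SE 0.22, limma adjusted p = 0.000543). Among the genes called higher it ranked 22 of 122, the other inhibitor 48, *Ikbke* 54, *Nfkb1* 74 and *Nfkb2* 102.

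*Ikbke*, the kinase gene, was at 28.95, 56.91 and 32.81 TPM in LEC control and at 96.01, 102.25 and 73.55 TPM in LEC-sorted libraries. Control replicate 2 was well above the other controls and still below the lowest sorted library. The mean was 39.6 ± 15.2 TPM in control and 90.6 ± 15.1 TPM in sorted cells, a log2 fold change of 1.22 (SE 0.28, limma adjusted p = 0.00727).

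The libraries deviated alike in several of these genes. Sorted replicate 3 was the lowest sorted library for all 5 genes, and control replicate 2 was the highest control for *Nfkb1*, *Nfkb2*, *Nfkbia* and *Ikbke* but the lowest for *Nfkbiz*. The summed TPM of the 5 genes was 278.05, 390.95 and 293.13 in control libraries against 811.12, 790.39 and 640.74 in the sorted libraries. Their share of the TPM of all listed genes went from between 1.11% and 1.28% in controls to between 2.05% and 2.38% in sorted libraries, so they took up a larger part of the listed transcripts in every sorted library. In bulk RNA, a change in the number of cells expressing a gene and a change in the transcripts per cell cannot be told apart.

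On the TPM scale, which accounts for transcript length, the order of levels in the 3 controls was *Nfkbia*, *Nfkb1*, *Nfkb2*, *Ikbke* and *Nfkbiz*. Sorted replicates 1 and 3 kept that order. In sorted replicate 2 *Nfkb2* was the lowest of the 5, below *Ikbke* and *Nfkbiz*. The neighbours *Nfkb2* and *Ikbke* were close in control replicate 2 (57.8 and 56.91 TPM). In sorted cells the ranges of *Nfkb2*, *Ikbke* and *Nfkbiz* overlapped. Within each sorted library *Ikbke* stayed above *Nfkbiz*, while the place of *Nfkb2* among these 3 changed between libraries. *Nfkbia* and *Nfkb1* stood above those 3 without overlap in the sorted libraries, and *Nfkbia* above *Nfkb1* in both groups.

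Ratios between members within a library do not depend on how libraries are scaled to each other, and they show where the genes rose unequally. *Nfkbiz* gained on each of the other 4 genes. Its ratio to *Nfkbia* was 0.172, 0.0953 and 0.136 in control libraries against 0.244, 0.242 and 0.206 in the sorted libraries, and the difference in mean log2 ratio was 0.82. Its ratio to *Nfkb1* was 0.315, 0.187 and 0.226 in control libraries against 0.563, 0.562 and 0.405 in the sorted libraries, a difference of 1.09. Neither ratio overlapped between groups. Against *Nfkb2* the difference was 1.31 and against *Ikbke* 0.87, again without overlap.

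*Nfkbia* gained on *Nfkb2*, from ratios of 2.66, 2.98 and 2.53 to 3.39, 4.61 and 3.62, a log2 difference of 0.50. These were the 5 of 10 pairs without overlap, each at p = 0.1 in an exact two-sided permutation test, which is the smallest p that 3 against 3 libraries can give, and at 0.2 after adjustment over the 10 pairs. No pair could therefore pass a threshold of 0.05. The ratio of *Nfkbia* to *Nfkb1*, inhibitor to subunit, was 1.84, 1.96 and 1.66 in control libraries against 2.31, 2.32 and 1.96 in the sorted libraries and overlapped between groups (log2 difference 0.27, exact permutation p = 0.2). *Nfkbia* and *Ikbke* moved most alike, with ratios of 4.11, 3.02 and 3.72 in control libraries against 3.78, 3.56 and 3.87 in the sorted libraries (log2 difference 0.06, exact permutation p = 0.8). The log2 ratio of the subunit genes, *Nfkb1* to *Nfkb2*, differed by 0.23 with overlap (exact permutation p = 0.3).

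**Figure D2:**
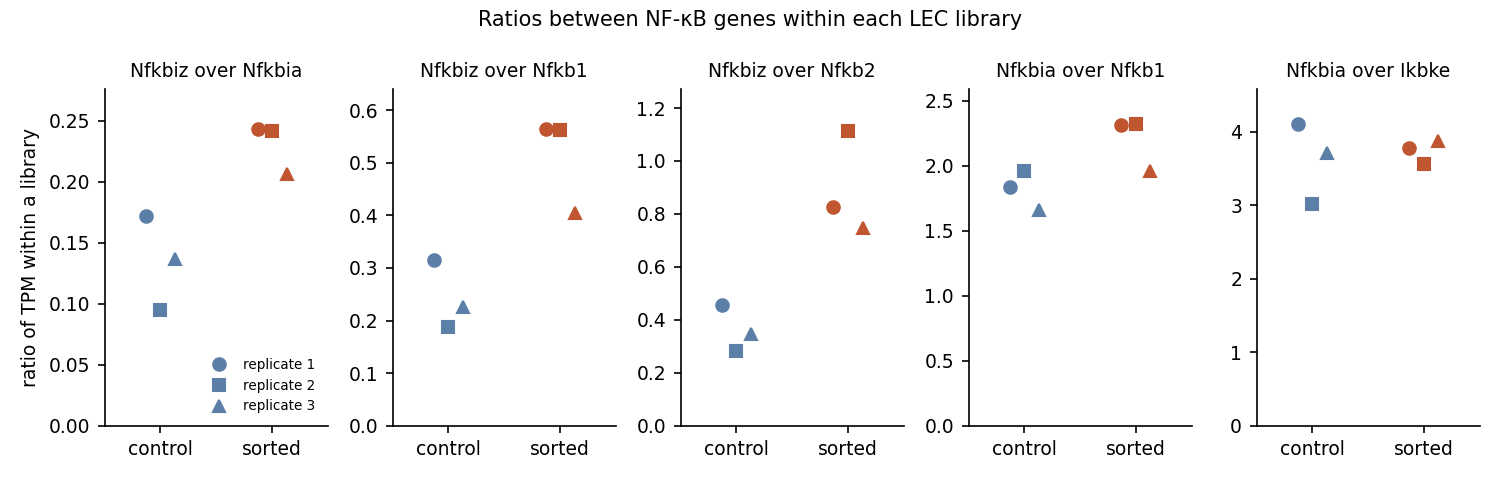
Ratio of TPM between members within each LEC library for 5 of the 10 pairs, each panel with its own axis from 0, controls in blue, sorted libraries in orange and one marker shape per replicate. The 3 ratios with *Nfkbiz* on top are higher in every sorted library than in any control, while *Nfkbia* over *Nfkb1* and *Nfkbia* over *Ikbke* overlap between groups.

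The size of the rises, though not their sign, depended on scaling in a table where most listed genes were higher in sorted cells. Scaling each library to the same median over the listed genes moved the median log2 fold change of all LEC genes by -0.61. After it, *Nfkbiz* kept a log2 fold change of 1.45 (limma adjusted p = 0.00121) and *Nfkbia* of 0.67 (adjusted p = 0.0144). *Ikbke* at 0.61 (adjusted p = 0.0717), *Nfkb1* at 0.40 (adjusted p = 0.0598) and *Nfkb2* at 0.17 (adjusted p = 0.494) were no longer called. *Nfkbiz* and *Nfkbia* therefore kept their calls relative to the listed genes as a whole, and *Ikbke*, *Nfkb1* and *Nfkb2* did not. The scaled changes of *Nfkbia* (0.67) and *Ikbke* (0.61) were close, so their calls do not show that *Nfkbia* rose more. Most listed LEC genes were called higher, so this scaling also takes out a rise that they share. It cannot tell such a rise from a difference in scale between libraries.

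**Figure D3:**
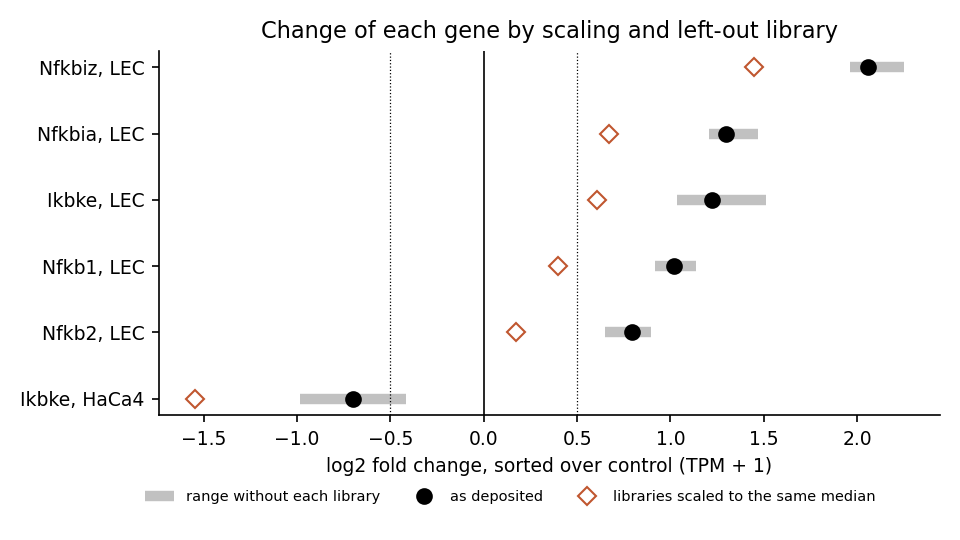
Log2 fold change of each gene in sorted over control libraries on the log2(TPM + 1) scale, as deposited (filled circle), with libraries scaled to the same median (open diamond), and as the range when each library in turn is left out (grey bar), with dotted lines at the fold thresholds of 0.5 and -0.5. In LECs all diamonds lie left of the circles and above 0, those of *Nfkb1* and *Nfkb2* below the threshold, whereas *Ikbke* in HaCa4 lies below 0 throughout.

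The second comparison concerned *Ikbke* in the carcinoma cells, where its direction was the opposite. It was at 59.24 and 39.64 TPM in HaCa4 control and at 26.75, 30.42 and 31.29 TPM in HaCa4-sorted replicates 1 to 3. The controls differed more from each other than the sorted libraries did, and the groups did not overlap. The mean was 49.4 ± 13.9 TPM (SD, n = 2) in control and 29.5 ± 2.41 TPM (SD, n = 3) in sorted cells. The log2 fold change of -0.70 (SE 0.20, limma adjusted p = 0.0424) passed the thresholds narrowly. With libraries scaled to the same median, which moved the median of all HaCa4 genes by -0.72, it was -1.55 (limma adjusted p = 0.000485). Since 183 of 290 listed HaCa4 genes (63.1%) were higher without overlap, this scaling takes out a shared rise here too. The larger fall therefore cannot be told from that effect. Among the HaCa4 genes, 41 of 290 (14.1%) were called lower and 97 (33.4%) were lower without overlap. *Ikbke* ranked 27 of the 41 genes called lower, whose median log2 fold change was -0.78.

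The sign and the call have to be told apart here. Leaving out a control leaves a single control library, which is then assumed to vary like the sorted ones. Without HaCa4 control replicate 1, the highest library, the log2 fold change was -0.42 (limma adjusted p = 0.214), and without control replicate 2 it was -0.99 (adjusted p = 0.161), with 6 and 0 of all 290 genes called by limma (101 and 70 at an unadjusted p under 0.05). Without sorted replicate 2 (-0.73, adjusted p = 0.0572) or sorted replicate 3 (-0.74, adjusted p = 0.0873) the fold was no smaller and the call was lost, and without sorted replicate 1 it was kept (-0.64, adjusted p = 0.0485). The sign was negative in every alternative run.

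Transcripts of endothelial markers moved in the same libraries. The 17 of 26 endothelial markers listed for HaCa4 summed to 4.02 and 3.07 TPM in the controls, where 9 and 8 of them were at 0, among them *Cdh5*, *Emcn*, *Flt4*, *Erg*, *Robo4* and *Icam2* in both. They summed to 19.45, 288.14 and 126.24 TPM in HaCa4-sorted replicates 1 to 3, with none at 0. The 3 listed keratinocyte markers summed to 310.83 and 399.66 TPM in control libraries, against between 214.99 and 246.43 TPM in the sorted libraries. LEC-sorted cells held 3.07-fold more *Ikbke* than HaCa4-sorted cells. The part of endothelial transcripts in the *Ikbke* result of HaCa4 was not tested. In the LEC libraries the only listed keratinocyte marker of 16, *Krt8*, had a value of 0 in each control, whereas sorted replicates 1 to 3 had 0.19, 2.19 and 0.89 TPM, beside 205.34 to 238.24 TPM in HaCa4-sorted cells. The 2 listed endothelial markers of LECs went in opposite directions. *Pdpn*, which encodes podoplanin and is also on the list of NF-κB targets, was called higher (log2 fold change 1.28) and *Kdr*, a VEGF receptor gene, lower (-0.59, limma adjusted p = 0.0126), while their sum was 268.51 to 316.13 TPM in LEC control and 355.79 to 524.4 TPM in LEC-sorted libraries. The part of either list in the LEC results was not tested.

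**Figure D4:**
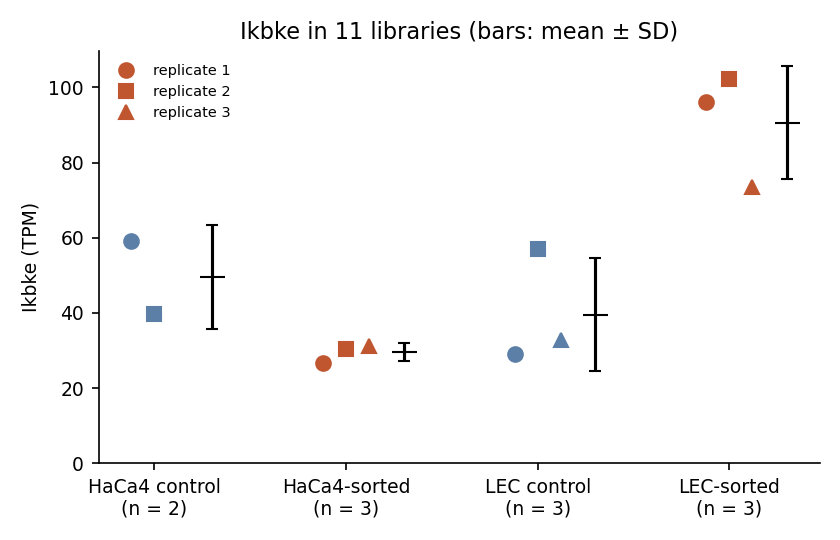
TPM of *Ikbke* in all 11 libraries by group, axis from 0, with controls in blue, sorted libraries in orange, one marker shape per replicate, and a bar for the mean ± SD. LEC-sorted libraries are the highest at 73.55 to 102.25 TPM, HaCa4-sorted the lowest as a group at 26.75 to 31.29 TPM, and the control groups overlap.

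Across the 4 groups, mean *Ikbke* ran from LEC-sorted (90.6 TPM) through HaCa4 control (49.4 TPM) and LEC control (39.6 TPM) to HaCa4-sorted (29.5 TPM). The single cultures of the lines could not be separated, at 39.64 to 59.24 TPM in HaCa4 and 28.95 to 56.91 TPM in LECs, and LEC control also overlapped HaCa4-sorted. The values of the lines come from separate tables, so these are levels set side by side and not a test. The change itself differed between the lines. The interaction term, the LEC change minus the HaCa4 change, was 1.93 on the log2 scale (SE 0.42, limma adjusted p = 0.00196, adjusted over the 23 genes listed for both lines). A difference between the lines was usual among these 23 genes, since 19 were called in one direction or the other and 16 had fitted changes of opposite sign. In 9 (39.1%) the LEC change was called above the HaCa4 change, 8 had a fitted rise in LECs and a fitted fall in HaCa4, and *Ikbke* ranked 4 in the order from the most positive difference down.

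Profiles most like those of the members were found as the smallest root mean square difference in log2(TPM + 1), centred on the controls, over the libraries of the line. Within LECs the nearest profile to *Nfkbia* was *Ikbke* and the reverse, at a difference of 0.139 over 6 libraries. The second nearest were *Sdc4*, which encodes the proteoglycan syndecan-4, to *Nfkbia* (0.165) and *Vcam1*, which encodes a leukocyte adhesion molecule, to *Ikbke* (0.184). *Sdc4* and *Vcam1* were also the nearest to *Nfkb1*, at 0.066 and 0.112. *Sdc4* was at 18.39, 24.74 and 20.72 TPM in control libraries against 48.61, 49.06 and 41.76 TPM in the sorted libraries, with the same high control replicate 2 and low sorted replicate 3.

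The profiles nearest to *Nfkb2* were *Sipa1l2* (0.145) and *Ivns1abp* (0.170). *Nfkbiz* had no neighbour as close, with *Ier3*, an immediate early response gene, at 0.260 and *Il13ra2*, which encodes an interleukin-13 receptor, at 0.277. In HaCa4, over 5 libraries, the nearest to *Ikbke* was *C1s1*, which encodes a complement protease, at 0.104. *C1s1* was at 39.07 and 23.22 TPM in control libraries against 15.41, 16.62 and 20.44 TPM in the sorted libraries. These are descriptions of shape over few libraries that share the group difference.

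The rest of the pathway was read from lists by role. Of 20 core genes (subunits, IκB proteins and kinases), 6 are listed for LECs, the 5 members and *Bcl3*, which encodes another nuclear IκB protein. *Bcl3* was at 2.1, 6.6 and 5.55 TPM in control libraries against 14.34, 23.89 and 25.19 TPM in the sorted libraries and was called higher (log2 fold change 2.01, SE 0.40, limma adjusted p = 0.0046). Both nuclear IκB genes thus had log2 fold changes near 2, above those of the other 4 core genes listed. Of 49 receptor and adaptor genes only *Il1r1*, the interleukin-1 receptor gene, is listed, and it was called higher, from 49.88, 25.83 and 35.88 TPM to 85.14, 84.17 and 74.39 TPM (log2 fold change 1.15, SE 0.24, limma adjusted p = 0.00566). Of 11 feedback genes only *Zc3h12a* is listed, which encodes an RNase that degrades inflammatory transcripts. It was called higher, from 4.83, 5.47 and 4.25 TPM to 22.22, 21.79 and 12.28 TPM (log2 fold change 1.72, SE 0.28, limma adjusted p = 0.00271).

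The list of 36 NF-κB target genes was chosen with earlier results of these data known. Its share of higher calls is therefore not independent evidence. Of the 36 genes, 23 are listed for LECs, with 22 called higher and none lower. Among all listed LEC genes, themselves selected for differing between these groups, 63.9% were called higher. *Tnfsf15* was not called, at a log2 fold change of 0.44. The median log2 fold change of the 23 was 2.02, above the median of the members. The 6 most abundant in sorted cells were chemokine, cytokine and acute-response genes. *Ccl2*, a monocyte chemokine gene, went from a mean of 1774 to 5137 TPM (log2 fold change 1.55) and *Ccl7*, of the same family, from 362 to 2433 TPM (2.55). *Cxcl1*, a neutrophil chemokine gene, went from 14.1 to 1192 TPM (6.21) and *Lcn2*, which encodes the iron-binding protein lipocalin-2, from 2.67 to 557 TPM (7.19). *Csf1*, the macrophage growth factor gene, had a log2 fold change of 0.85 and *Ier3* of 1.75. The adjusted p from limma lay between 6.74e-05 and 0.00566 for these 6 genes. All 6 had higher values in each sorted library than in any control.

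**Figure D5:**
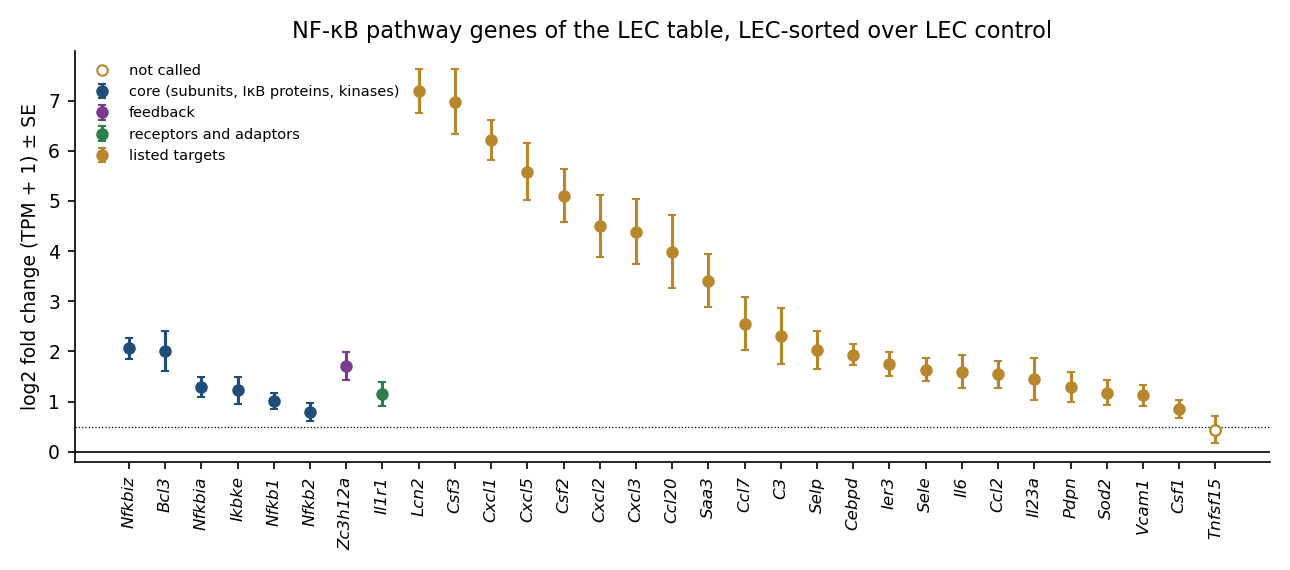
Log2 fold change ± SE on the log2(TPM + 1) scale, LEC-sorted over LEC control, for every NF-κB pathway gene listed for LECs, coloured by role, with the uncalled gene as an open point and a dotted line at the threshold of 0.5. All points lie above 0, and 22 of the 23 target genes, from a list chosen with earlier results known, were called. *Lcn2* at 7.19 and *Cxcl1* at 6.21 lie far above the members at 0.79 to 2.06.

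In HaCa4 the same lists held few genes and no common direction. Of the 20 core genes, *Ikbke* and *Tbkbp1*, which encodes an adaptor of the related kinase TBK1, are listed. *Tbkbp1* was at 0 and 0.14 TPM in control libraries against 0.43, 1.68 and 1.09 TPM in the sorted libraries and was not called (limma adjusted p = 0.0882). None of the 49 receptor and adaptor genes is listed. Of the 3 listed feedback genes, *Tnip3*, which encodes a partner of the inhibitor A20, was called lower, from 2.84 and 1.85 TPM to 0.6, 0.23 and 0.5 TPM (log2 fold change -1.21, SE 0.37, limma adjusted p = 0.0491). *Tnfaip2* (log2 fold change -0.39) and *N4bp1* (0.41) were not called.

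Of the 5 listed target genes in HaCa4, *Cxcl3*, a neutrophil chemokine gene, was called higher, from 182.69 and 105.01 TPM to 290.83, 317.72 and 287.19 TPM. *Selp*, the P-selectin gene, was also called higher (log2 fold change 1.38), and *Cx3cl1*, which encodes a membrane-bound chemokine, was called lower (-0.97). *Icam1* (1.86, limma adjusted p = 0.0621) and *Mmp9* (-0.57, adjusted p = 0.127) were not called. *Selp* and *Icam1* are expressed by endothelial cells too. In sorted replicates 1 to 3 *Selp* was at 21.49, 14.52 and 14.36 TPM and *Icam1* at 0.82, 7.27 and 3.46 TPM. The part of endothelial transcripts in either value was not tested.

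IKKε acts on interferon regulatory factors, so genes of the interferon response were also counted. None of the 36 on the list is listed for LECs, and interferon-responsive genes outside the list were not counted. For HaCa4, 22 are listed, 20 of them higher in the sorted libraries without overlap, and 7 were called higher and none lower. Of all HaCa4 genes, 63.1% were higher without overlap and 15.9% were called higher. *Irf7*, a substrate of IKKε, was at 5.63 and 3.44 TPM in control libraries against 17.7, 11.13 and 46.04 TPM in the sorted libraries (log2 fold change 2.02, limma adjusted p = 0.0424). *Isg15*, which encodes a ubiquitin-like modifier, was at 5.84 and 5.51 TPM and at 29.95, 21.17 and 107.96 TPM (log2 fold change 2.66, limma adjusted p = 0.0366), and *Bst2*, which encodes tetherin, had a log2 fold change of 1.96. *Ifi27* (0.94) and *Ddx58* (0.91) were not called. Sorted replicate 3 was the highest library for *Irf7* and *Isg15* by a wide margin, while its *Ikbke* value of 31.29 TPM was close to those of the other sorted libraries.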

How the data were processed

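RNA was extracted with a column kit and libraries were sequenced on a BGISEQ platform. The authors filtered reads with SOAPnuke, aligned them with HISAT2 2.0.4 to GRCm38.p6, and called differential genes with DESeq2. The authors deposited TPM values with 2 decimals, for selected genes and for each library alone. The tool that gave the TPM is not given in the sources used here. TPM does not permit a count test, so limma 3.58.1 (R 4.3.3) with its trend option was fitted to log2(TPM + 1) over each whole table. This scale understates the change of low genes. The interaction was fitted on the 23 shared genes. The fold threshold of 0.5 and the adjusted p of 0.05 follow the methods of the study. The fits within each line were tested on simulated data that drew independent noise for each gene. The interaction fit was not part of that test.

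The genes named are the members, every listed receptor, adaptor, core and feedback gene, the 6 target and 6 interferon genes with the highest mean in sorted libraries, and the 2 nearest profiles of each member. A few further genes are named to account for a count. Some genes that this rule selects are not reported here. The members and lists were chosen with earlier results of these data known. Alternatives were pseudocounts of 0.1 and 5, mean TPM of at least 1 or 10, median scaling, no trend, a replicate block, a log2 threshold of 1, and leaving out each library. Promoter windows are from RefSeq. Plots used matplotlib 3.10.9.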

Additional observations from a re-analysis of the deposited data

Results flagged for a closer look

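The change of *Ikbke* differed between the cell lines. It was higher in sorted than in control LECs (log2 fold change 1.22) and lower in sorted than in control HaCa4 cells (-0.70), and the interaction term was 1.93 (SE 0.42, limma adjusted p = 0.00196 over 23 genes). Of those 23 genes, 19 were called as differing and 16 had changes of opposite sign. All 3 LEC-sorted libraries were above all LEC controls, and all 3 HaCa4-sorted libraries were below both HaCa4 controls. The difference kept its sign and its call in 16 of 16 alternatives, between 1.31 and 2.21. The value of 1.31 came from scaling to the same median over the 23 shared genes, and not over the listed genes of each line. Because the study selected the genes of both lines on these libraries, neither the call nor its persistence is independent evidence. The HaCa4 change taken alone lost its call in 8 of 14. These counts are not alike, because the interaction call had no fold threshold. It was also not run with the mean TPM filters, the log2 threshold of 1 or the second HaCa4 control numbered 3.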

How the results depend on the processing

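All 5 genes kept a positive log2 fold change in LECs in 14 of 14 alternatives, and *Nfkbia* (0.67 to 1.47) and *Nfkbiz* (1.45 to 2.25) also kept their call in each. With libraries scaled to the same median, *Nfkb1* (0.40), *Nfkb2* (0.17) and *Ikbke* in LECs (0.61) were no longer called. The genes called in LECs then fell from 184 (122 higher, 62 lower) to 110 (46 higher, 64 lower), and those in HaCa4 rose from 87 (46 higher, 41 lower) to 140 (46 higher, 94 lower). With a log2 threshold of 1, *Nfkb2* (0.79) and *Ikbke* in HaCa4 (-0.70) were not called, and 95 LEC and 39 HaCa4 genes were. *Ikbke* in HaCa4 was also not called with a pseudocount of 5 (-0.64, limma adjusted p = 0.0583) or without the trend (-0.70, adjusted p = 0.079), ranged from -0.99 to -0.42 with a library left out, and was -1.55 (adjusted p = 0.000485) with median scaling. The HaCa4 count was 177 with a pseudocount of 0.1, 33 with one of 5, and 0 in limma without the trend (161 at an unadjusted p under 0.05). It ranged from 0 to 194 with a library left out, with 0 both without control 2 (70 unadjusted) and without sorted 3 (126 unadjusted), 6 without control 1, and 194 without sorted 1.

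The labels do not say whether same-numbered libraries were paired. For LECs the correlations of their deviations were 0.23, 0.09 and -0.02, and not every library correlated best with its own number. Whether they were paired is therefore not known. A replicate block gave 182 calls in LECs and 115 in HaCa4, with *Ikbke* in HaCa4 at -0.74 (adjusted p = 0.00336), where sorted 3 has no partner and adds nothing to the estimate. With the second HaCa4 control numbered 3, as its deposited values are, the block gave 22 calls and *Ikbke* at -0.73 (adjusted p = 0.107). Of the 10 member ratios, the sign was kept in all alternatives except for *Nfkbia* over *Ikbke* (-0.07 to 0.16). Read depth is unknown, so precision rests on 2 or 3 libraries a group.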
